A study of Homo sapiens with 4 samples.

Results

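The SLC2A genes encode the facilitative glucose transporters, or GLUT proteins, and 10 of them were followed here in HEK293 cells. Their members were taken by symbol, as every probe set that the platform annotation assigns to one of these genes alone. That gave 24 probe sets among the 54675 on each array, between 1 and 5 per gene. High glucose cells had spent 7 days in DMEM with 450 mg/dl glucose, and low glucose cells 7 days in DMEM with 100 mg/dl. Each group had 2 arrays, and both media were supplemented with fetal calf serum. HEK293 is an established human embryonic kidney line, so all values describe a single transformed line and no tissue. Nothing in the labels, which name biological replicates, says how separate the cultures were, so p-values measure the spread between these samples only.

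GLUT proteins carry hexoses across membranes down a concentration gradient, without ATP or sodium. The family is usually ordered in 3 classes by sequence. GLUT1, GLUT3 and GLUT4 are plasma membrane glucose transporters of the first class, GLUT5 and GLUT11 belong to the second, and GLUT6, GLUT8, GLUT10, GLUT12 and the inositol carrier HMIT (SLC2A13) to the third, of which several sit on internal membranes. Once inside, glucose is trapped by hexokinase, so transport and phosphorylation together set how much sugar a cell takes in.

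Replicate arrays correlated across the 27307 tested probe sets with r = 0.988 (high glucose) and 0.985 (low glucose), whereas pairs from unlike groups gave 0.925 to 0.928, all across probe sets that are not independent replicates. The bacterial poly-A spikes, a control for labelling, separated the groups in all 24 of their probe sets, with high glucose above low glucose by a median of 1.94 log2 units. Of the 6 ribosomal RNA probe sets, 5 were also higher in high glucose without overlap, and the median difference of the 6 was 1.73 log2 units. The hybridisation controls had medians of 486 and 875 on the high glucose arrays and 869 and 891 on the low glucose arrays, so high glucose replicate 1 was low. The part of these controls in the values below was not tested. Of 7 HEK293 marker genes, 6 lay above the signal used as the lower limit for testing, 32.9, and NEFM did not. KRT8, KRT18, LIN28B and CDH2 were called higher in high glucose (2.09-fold, 2.10-fold, 2.41-fold and 1.45-fold), VIM was called lower (1.87-fold) and NEFL did not pass. Of 13 marker genes of liver, blood, muscle, fat, endothelium and kidney tubule, PECAM1 alone lay above it, and their summed signal was 138 and 197 on the high glucose arrays against 196 and 253 on the low glucose arrays.

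SLC2A3 (GLUT3) and SLC2A6 (GLUT6) rose in high glucose, SLC2A10 (GLUT10) and SLC2A13 (HMIT) fell, and SLC2A1 (GLUT1) did not pass the test. Of the 24 probe sets, 15 had a mean signal high enough to be tested, from 9 of the 10 genes. Among these 15, 4 were called higher and 2 lower (limma, Benjamini-Hochberg adjusted p under 0.05 over all 27307 probe sets). In all, 50.4% of tested probe sets were called, 23.1% higher and 27.2% lower, so the 40.0% called among the transporters is not above the background. Taken by their brightest probe set, 4 of 9 genes were called, against 56.4% of all 12242 genes. The median difference of the 15 probe sets was -0.30 log2 units, high minus low glucose, beside -0.06 for all tested probe sets. Signals of different probe sets are not set against each other below, because probes differ in how strongly they bind.

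Of the 10 genes, 8 had a promoter in the RefSeq table of GRCh38.p14, which covers 250 bases before to 50 bases after each start. SLC2A3 and SLC2A4 had none, so the promoter of the gene with the largest called rise cannot be shown. The other called genes are printed here with SLC2A1, which did not pass in the fit as reported. Capitals mark matches, on either strand, to the E-box CACGTG, the hypoxia core ACGTG, the GC box GGGCGG, the CCAAT box and also to the amino acid response element TGATGNAA and the carbohydrate response element, a pair of E-box-like motifs spaced by 5 bases. An E-box holds the hypoxia core, so those matches overlap.
SLC2A6 promoter, chr9:133479050-133479349, minus strand: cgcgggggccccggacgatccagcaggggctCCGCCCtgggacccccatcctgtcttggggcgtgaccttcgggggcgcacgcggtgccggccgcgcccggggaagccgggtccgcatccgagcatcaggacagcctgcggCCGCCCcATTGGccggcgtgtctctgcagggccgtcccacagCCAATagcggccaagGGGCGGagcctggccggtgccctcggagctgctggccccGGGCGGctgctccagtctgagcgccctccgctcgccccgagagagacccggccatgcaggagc
SLC2A10 promoter, chr20:46709399-46709698, plus strand: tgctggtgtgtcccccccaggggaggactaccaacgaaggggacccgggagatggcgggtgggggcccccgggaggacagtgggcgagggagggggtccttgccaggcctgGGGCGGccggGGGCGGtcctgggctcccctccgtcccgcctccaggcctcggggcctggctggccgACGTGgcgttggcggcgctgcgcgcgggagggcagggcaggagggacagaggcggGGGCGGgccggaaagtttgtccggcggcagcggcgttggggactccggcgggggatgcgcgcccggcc
SLC2A13 promoter, chr12:40106032-40106331, minus strand: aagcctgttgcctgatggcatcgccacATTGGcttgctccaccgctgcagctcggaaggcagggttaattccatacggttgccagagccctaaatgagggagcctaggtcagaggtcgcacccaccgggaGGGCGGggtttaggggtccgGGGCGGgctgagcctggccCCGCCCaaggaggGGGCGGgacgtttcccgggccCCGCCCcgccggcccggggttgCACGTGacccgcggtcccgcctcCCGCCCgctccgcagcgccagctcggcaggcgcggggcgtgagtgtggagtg
SLC2A1 promoter, chr1:42958819-42959118, minus strand: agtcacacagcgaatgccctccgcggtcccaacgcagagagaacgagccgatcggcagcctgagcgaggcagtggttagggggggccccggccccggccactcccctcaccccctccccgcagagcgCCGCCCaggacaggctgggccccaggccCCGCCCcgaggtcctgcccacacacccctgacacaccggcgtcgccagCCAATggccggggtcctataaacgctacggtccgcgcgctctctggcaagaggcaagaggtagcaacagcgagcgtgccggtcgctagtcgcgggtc
All these windows were rich in G and C, at 76.0% for SLC2A6, 78.0% for SLC2A10, 71.3% for SLC2A13 and 71.0% for SLC2A1, against a median of 58.7% over the 35116 promoters of the table. GC boxes numbered 4, 3, 6 and 2 in the same order, and 45.0% of all promoters of this length hold at least 1. Of the members not printed, none of them called, SLC2A8 stood at 67% with 6 GC boxes. SLC2A5 (47.7%), SLC2A12 (45.7%) and the windows of SLC2A11 (54.7%, 63.3% and 65%) held 0. SLC2A13 held the only E-box among the member promoters, starting 25 bases before the start site, a motif in 7.26% of all promoters. SLC2A10 had the hypoxia core without an E-box around it (in 21.4% of all promoters). The carbohydrate response element, found in 0.501% of all promoters, had 0 matches in the member promoters. SLC2A5 had the only amino acid response element, a motif in 3.62% of all. These matches describe the letters of the windows, not binding.

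SLC2A3 encodes GLUT3, a high-affinity glucose transporter best known from neurons. Its brightest probe set, 202499_s_at, read 2012 and 2179.6 signal units in high glucose, against 993 and 971 in low glucose. Probe set 202497_x_at read 1625 and 1616 in high glucose, against 973 and 876 in low glucose. In 202498_s_at the signals were 779.65 and 828 in high glucose, against 327 and 399 in low glucose. Both high glucose arrays thus lay above both low glucose arrays in each of the 3 probe sets. The log2 differences were 1.09 ± 0.06, 0.81 ± 0.07 and 1.15 ± 0.10 (SE), with limma adjusted p of 2.4e-05, 0.00011 and 0.00013. In bulk RNA, a change per cell and a change in how many cells express a gene cannot be told apart. On the linear scale the differences are 2.13-fold, 1.76-fold and 2.22-fold. In the brightest probe set the lowest high glucose array exceeded the highest low glucose array 2.03-fold, while replicates differed by at most 1.08-fold. All 3 identifiers end in _s_at or _x_at, the suffixes for probes that may match further transcripts, and SLC2A14, which encodes the near-identical GLUT14, is a gene that could share them.

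SLC2A6 encodes GLUT6, a hexose transporter of lysosomal membranes. Its 1 probe set, 220091_at, read 518 and 511 in high glucose, against 316 and 322 in low glucose. Replicates lay within 1.02-fold of each other and the groups did not overlap. The log2 difference was 0.69 ± 0.07 (1.61-fold higher, limma adjusted p = 0.00029). The poly-A spikes differed in the same direction as the SLC2A3 and SLC2A6 rises, by 3.84-fold, and their part in these values was not tested.

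SLC2A10 encodes GLUT10, a transporter of internal membranes whose loss causes arterial tortuosity syndrome. Its 1 probe set, 221024_s_at, read 141 and 128 in high glucose, against 279 and 256 in low glucose. The signal was 134 ± 8.9 in high glucose and 267 ± 16.7 in low glucose (SD, n = 2 each). The nearest arrays of the groups differed 1.82-fold and replicates by at most 1.10-fold. The log2 difference was -0.99 ± 0.12 (1.99-fold lower in high glucose, limma adjusted p = 0.00053). The poly-A spikes differed in the opposite direction, and their part in this value was likewise not tested.

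SLC2A13 encodes HMIT, a proton-coupled myo-inositol carrier that does not serve glucose uptake. Probe set 227176_at read 97.5 and 83.5 in high glucose, against 135 and 149 in low glucose. Both high glucose arrays were lower, and the log2 difference was -0.65 ± 0.17 (1.57-fold lower, limma adjusted p = 0.015). The call was lost without high glucose replicate 2 (adjusted p = 0.069) and without low glucose replicate 2 (0.06), and its adjusted p lay between 0.013 and 0.069 over 14 alternatives. The other 4 probe sets of SLC2A13 were too dim to be tested. The brightest of these, 1552695_a_at, read 24.9 and 23.8 in high glucose, against 32.3 and 32.4 in low glucose, also without overlap. The remaining 3 overlapped between the groups, with signals between 2.26 and 36.8.

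**Figure D1:**
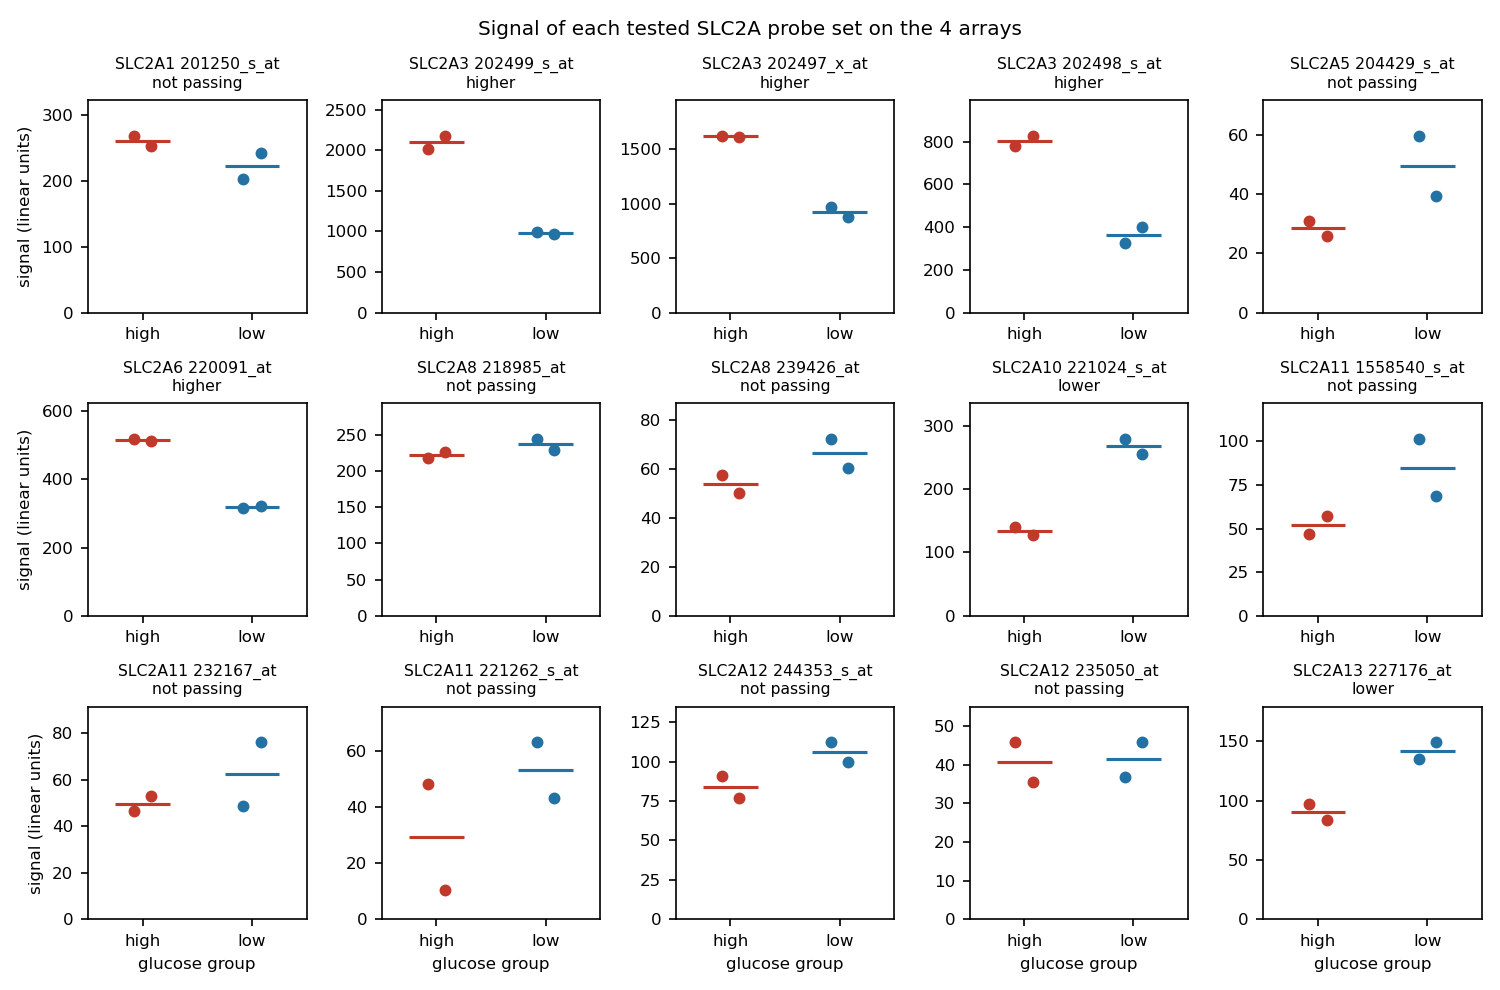
Signal in linear units (vertical axes, from 0, scaled per panel) of the 15 tested SLC2A probe sets on the 2 high glucose arrays (red, left) and the 2 low glucose arrays (blue, right), with lines at group means. The points of SLC2A3 and SLC2A6 stand higher in high glucose and those of SLC2A10 and SLC2A13 lower, with no overlap, while the 2 high glucose arrays of SLC2A11 probe set 221262_s_at lie far apart, at 48.4 and 10.5.

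SLC2A1 encodes GLUT1, which supplies basal glucose uptake in most cells. Probe set 201250_s_at read 268 and 252 in high glucose, against 203 and 242 in low glucose. The groups did not overlap, but the nearest arrays differed by 1.04-fold while the low glucose replicates differed by 1.19-fold. The log2 difference was 0.23 ± 0.12 and did not pass (limma adjusted p = 0.14). Its 95% interval ran from -0.05 to 0.51, which holds both no difference and rises well below that of SLC2A3. It passed after median centring of the arrays (log2 difference 0.40, adjusted p = 0.032) and without low glucose replicate 2 (0.36, adjusted p = 0.047), with adjusted p between 0.032 and 0.51 over 14 alternatives. Its dim probe set 201249_at, at 21.1 and 10.2 in high glucose, against 15.5 and 17.1 in low glucose, was not tested.

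The insulin-responsive transporter of muscle and fat, SLC2A4 (GLUT4), was the 1 gene without a tested probe set. Its probe set 206603_at read 15.6 and 1.71 in high glucose, against 3.55 and 19.9 in low glucose, so replicates differed by up to 9.16-fold, and no difference can be read from these signals.

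SLC2A5 encodes GLUT5, the fructose transporter. Its brightest probe set, 204429_s_at, read 30.9 and 26.0 in high glucose, against 59.7 and 39.2 in low glucose. The arrays did not overlap between groups, and the high glucose arrays lay under the limit for testing. The log2 difference of -0.77 ± 0.33 did not pass (limma adjusted p = 0.089, and from 0.047 to 0.37 over 13 alternatives, the lowest without low glucose replicate 2). The other 3 SLC2A5 probe sets, with signals between 3.45 and 23.9, overlapped and were not tested.

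SLC2A8 encodes GLUT8, a hexose transporter held inside the cell. Probe set 218985_at read 218 and 226 in high glucose, against 244 and 229 in low glucose, and 239426_at read 57.8 and 50.3 in high glucose, against 72.4 and 60.6 in low glucose. Both were somewhat lower in high glucose without overlap, and neither passed, at -0.09 ± 0.10 and -0.30 ± 0.24 log2 units (limma adjusted p = 0.49 and 0.33). The 95% interval of the brighter ran from -0.33 to 0.15, and its sign turned after median centring, to 0.079. GLUT8 thus had the narrowest interval around 0 that these arrays gave for a member that did not pass.

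SLC2A11 encodes GLUT11, a transporter of glucose and fructose with several splice forms. Probe set 1558540_s_at read 46.8 and 57.3 in high glucose, against 101 and 68.4 in low glucose, without overlap. Probe set 232167_at read 46.5 and 52.8 in high glucose, against 48.8 and 76.2 in low glucose. In 221262_s_at the signals were 48.4 and 10.5 in high glucose, against 63.2 and 43.1 in low glucose. The last of these probe sets overlapped, as did 232167_at. The log2 differences were -0.68 ± 0.27, -0.30 ± 0.29 and -1.21 ± 0.66, and none of the 3 passed (limma adjusted p = 0.069, 0.42 and 0.17). Single arrays decided these values. Without low glucose replicate 2 the first passed (-0.97, adjusted p = 0.025), and without high glucose replicate 1 the last did (-2.31, adjusted p = 0.0082), while without high glucose replicate 2 the last stood at -0.11.

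SLC2A12 encodes GLUT12, a glucose transporter first described in a breast cancer line. Probe set 244353_s_at read 90.5 and 77.0 in high glucose, against 112 and 99.6 in low glucose, and 235050_at read 45.8 and 35.5 in high glucose, against 36.9 and 45.9 in low glucose. The groups stood apart in the first and overlapped in the second. The log2 differences were -0.34 ± 0.19 and -0.03 ± 0.30, and neither passed (limma adjusted p = 0.17 and 0.94). The sign of the second turned after each of the 3 normalizations between arrays.

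**Figure D2:**
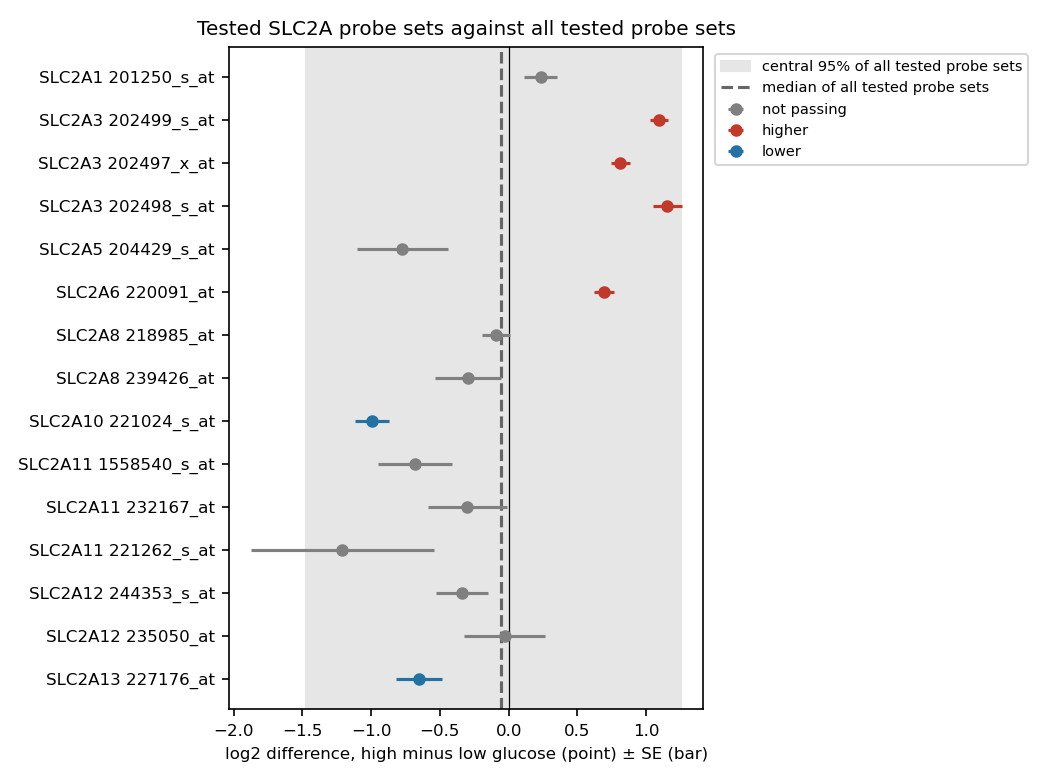
Log2 difference, high minus low glucose (horizontal axis, points, with SE as bars), of the 15 tested SLC2A probe sets, beside the median (dashed, -0.06) and the central 95% (grey, -1.48 to 1.26) of all 27307 tested probe sets. All 15 points lie inside the grey range, and the bar of SLC2A11 probe set 221262_s_at is the widest.

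Of the 9 tested probe sets that did not pass, 8 had a negative difference and 1, that of SLC2A1, a positive one. The groups did not overlap in 12 of the 15 probe sets, a pattern shown by 76.8% of all tested probe sets. All 6 called probe sets read at least 83.5 on every array. The 9 untested probe sets had 4-array mean signals of 28.1 or less, and the dimmest tested one stood at 34.3.

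Genes around sugar entry were taken from 7 lists of textbook members, each gene read through its brightest tested probe set. The counts below stand against 56.4% of all genes called, 23.8% higher and 32.6% lower, and a median of -0.06 log2 units over all tested probe sets. SLC2A9 (GLUT9), the urate carrier of the same family, read 33.5 and 34.9 in high glucose, against 53.9 and 53.4 in low glucose in its tested probe set. The arrays did not overlap, the high glucose ones lay just above the limit for testing, and the difference of -0.65 ± 0.26 log2 units did not pass (limma adjusted p = 0.075). Its dimmer probe set, 240223_at, overlapped at 27.3 and 14.6 in high glucose, against 28.3 and 13.9 in low glucose, and was not tested. SLC2A2 (GLUT2), the transporter of liver and beta cells, stayed between 0.60 and 2.87 on all 4 arrays and was not tested. Among sodium-coupled and other sugar carriers, 0 of 4 tested genes rose and 2 fell, a called share of 50.0% that is near the 56.4% of all genes. SLC5A3, a sodium-coupled myo-inositol transporter, fell by 0.43 log2 units and SPNS1, now known as a lysosomal lipid carrier, fell by 0.38 log2 units. Neither of these brightest probe sets passed after median centring (limma adjusted p = 0.07 and 0.077), where SLC45A4 did (0.58, adjusted p = 0.031). SLC45A4 and SLC50A1 did not pass in the fit as reported, at 0.41 and -0.24. Without high glucose replicate 1, 1 gene of this list rose and 2 fell, and without high glucose replicate 2, 0 rose and 3 fell.

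SLC5A3 and SLC23A2, a sodium-coupled ascorbate carrier, both fell in high glucose. SLC5A3 read 719.6 and 600 in high glucose, against 857 and 918.5 in low glucose, in its brightest probe set. Another SLC5A3 probe set read 481 and 499 in high glucose, against 772 and 847 in low glucose. It fell by 0.72 log2 units (limma adjusted p = 0.00023), and a dimmer tested one did not pass (-0.42). SLC23A2 read 414 and 377 in high glucose, against 587 and 661 in low glucose, a difference of -0.66 ± 0.09 log2 units (limma adjusted p = 0.00086). The other 2 tested probe sets of SLC23A2 did not pass, at -0.23 and 0.19. SLC5A3 and SLC23A2 were the 2 tested genes of the ascorbate and inositol list, too few to set against the 32.6% of all genes called lower. By brightest probe set, SLC23A2 alone fell after median centring.

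Of 5 tested genes that phosphorylate hexoses, 0 rose and 2 fell, a called share of 40.0% against 56.4% of all genes. HK1, the main hexokinase of many cells, read 1970.1 and 1746 in high glucose, against 1845 and 2021 in low glucose, overlapping, with a log2 difference of -0.06 that did not pass (limma adjusted p = 0.57). HK2, the inducible hexokinase, fell by 0.31 log2 units (adjusted p = 0.047), a call lost after each of the 3 normalizations, and its other 2 probe sets did not pass. ADPGK, an ADP-dependent glucokinase, fell by 0.69 log2 units (adjusted p = 0.00015) and by 0.58 log2 units in its other probe set. Without high glucose replicate 1 or low glucose replicate 1, 1 of the 5 genes fell. KHK, the ketohexokinase that starts fructose use, stood at -0.31 and did not pass (adjusted p = 0.083).

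Of 19 genes that act in the traffic of GLUT proteins, 8 rose, 2 fell and 9 did not pass, with a list median of 0.19. The called share, 52.6%, was near the 56.4% of all genes. Of genes not passing by their brightest probe set, TBC1D1 (-1.28 log2 units), AKT2 (-0.40 and -1.14) and VPS35 (-0.32) had dimmer ones called lower. A dimmer TBC1D5 probe set was called higher (0.70). SNAP23, a SNARE protein of the plasma membrane, rose 2.05-fold in its brightest probe set, at 1222 and 1155 in high glucose against 593 and 565 in low glucose (limma adjusted p = 3.1e-05). VPS29, a retromer subunit, rose by 0.82 log2 units, and its dimmer probe set stood at 0.06 and did not pass. ARRDC4 and TXNIP, arrestins that promote GLUT1 uptake from the surface, rose 2.03-fold and 2.24-fold in their brightest probe sets. The other 2 probe sets of TXNIP rose more, 3.13-fold and 5.76-fold (limma adjusted p = 0.00056 and 5e-05). The brightest of TXNIP read 251 and 247 in high glucose, against 127 and 97.6 in low glucose. VAMP2, a vesicle SNARE of GLUT4 compartments, fell by 0.95 log2 units (limma adjusted p = 0.00063), in the direction opposite to SNAP23. After median centring 11 of these genes rose and 1 fell, and 1 fell likewise without high glucose replicate 1 or 2 or low glucose replicate 1.

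Among 13 transcription factors known to act on GLUT genes, 5 rose, 7 fell and 1 did not pass. The called share was 92.3%, against 56.4% of all genes, 23.8% higher and 32.6% lower. This list was chosen with earlier results of these data known, so the share describes these 13 genes and is no test of such factors. The 5 count SP1 by its brightest probe set (0.21, limma adjusted p = 0.022), while a further SP1 probe set was called in the opposite direction (-0.26, adjusted p = 0.0095), so SP1 has no settled direction. SLC2A4RG, which binds the SLC2A4 promoter, rose by 0.67 log2 units, at 938 and 889 in high glucose against 562 and 590.0 in low glucose (limma adjusted p = 0.00022). Another of its probe sets rose by 1.68 log2 units and 1 did not pass. MEF2A, a partner of SLC2A4RG at that promoter, fell by 0.91 log2 units where brightest and by 0.98 log2 units in another probe set, while its other 2 did not pass. ATF4, a factor of the stress response to nutrients, fell by 1.14 log2 units and EPAS1, a hypoxia factor, fell by 0.84 log2 units. HIF1A, a further hypoxia factor, went the other way and rose by 0.35 log2 units (limma adjusted p = 0.0029), so the hypoxia factors share no direction. ARNT, counted as lower, lost its call after each of the 3 normalizations. MLX and SP1, counted as higher, lost theirs after quantile normalization. The other tested probe sets of ARNT and MLX did not pass. After quantile normalization 3 of these genes rose and 6 fell, and without low glucose replicate 1 the same counts were found.

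Of 5 tested genes of lactate formation and export, 3 rose and 0 fell, a called share of 60.0%, near the 56.4% of all genes. The list held 8 genes, of which 6 had a single-gene probe set, and SLC16A1 and SLC16A3 did not. SLC16A7 (MCT2), a monocarboxylate transporter, rose by 1.19 log2 units where brightest, at 182 and 165 in high glucose against 68.4 and 84.1 in low glucose (limma adjusted p = 0.0012). Its other 3 tested probe sets did not pass and differed in direction, at 0.60, -0.19 and -0.08. LDHA, which makes lactate from pyruvate, rose by 0.46 log2 units, and EMB, a chaperone of monocarboxylate transporters, rose by 0.22 log2 units. BSG, a further chaperone of this kind, stood at 0.17 and did not pass. LDHB stood at -0.11 without passing, and turned to a rise of 0.32 after quantile normalization (adjusted p = 0.00029). Without high glucose replicate 2, 2 of these genes rose and 1 fell, and without low glucose replicate 1, 2 rose and 0 fell.

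**Figure D3:**
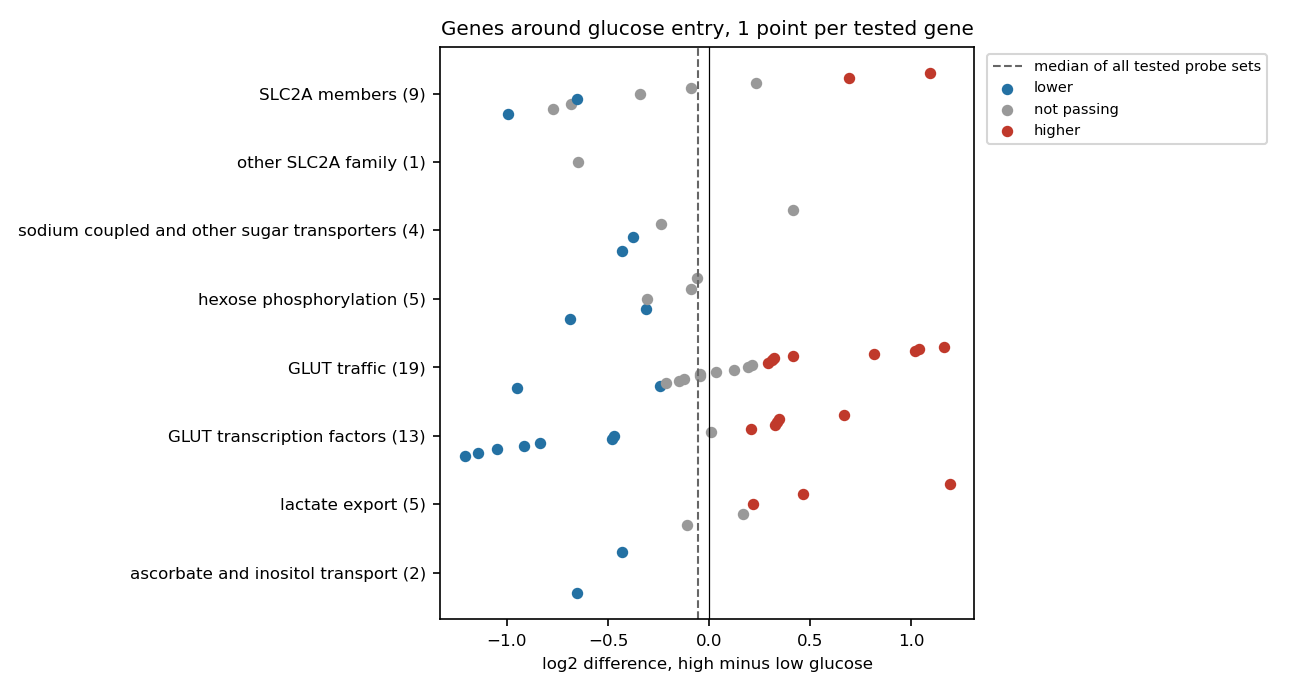
Log2 difference, high minus low glucose (horizontal axis), of the brightest tested probe set of each gene, for the SLC2A members and 7 lists around sugar entry (number of tested genes in brackets), coloured by call. The SLC2A members run from -0.99 (SLC2A10) to 1.09 (SLC2A3), and the transcription factors split into genes that fell and genes that rose, with 1 that did not pass.

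The genes most like SLC2A3 and SLC2A10 were found by the Euclidean distance between log2 signals, each centred on its own mean over the 4 arrays. For SLC2A3 they were ZNF326 (distance 0.028), PA2G4 (0.036) and the noncoding FTX (0.042), and for SLC2A10 they were ERCC1 (0.031), MID1IP1 (0.040) and SOCS1 (0.049). Within a distance of 0.2 lay 196 of 12241 genes for SLC2A3 and 280 for SLC2A10.

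**Figure D4:**
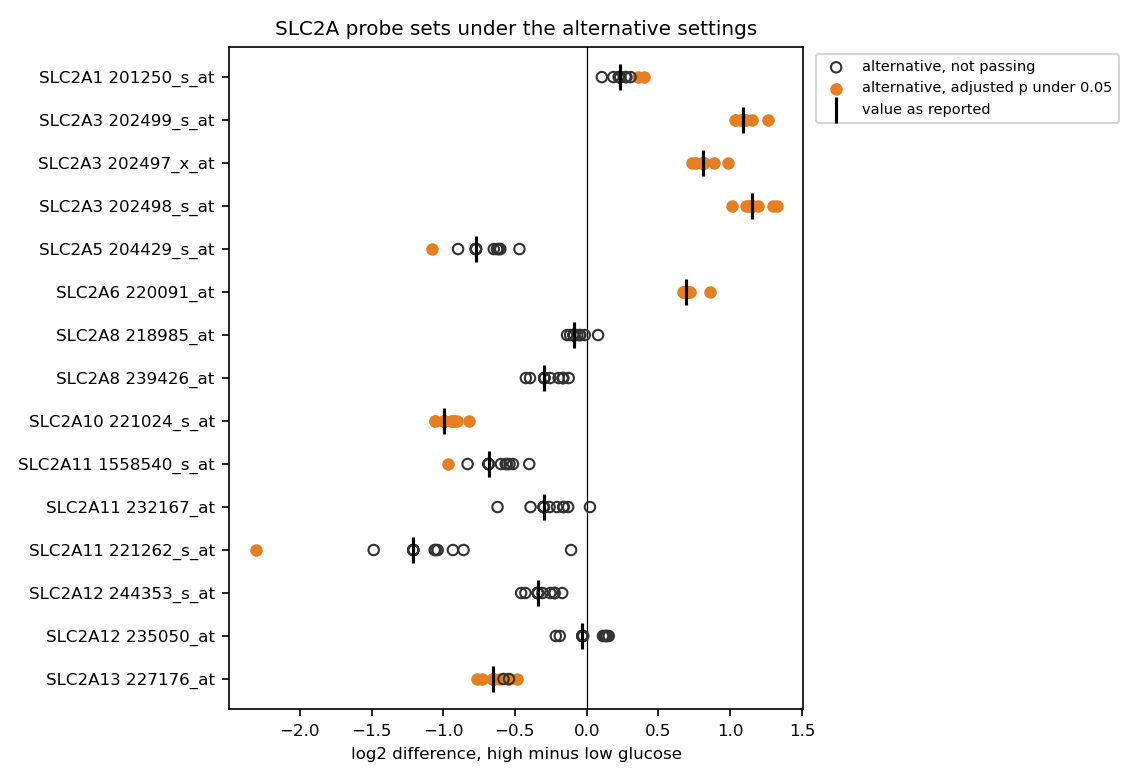
Log2 difference, high minus low glucose (horizontal axis), of the 15 tested SLC2A probe sets as reported (black tick) and under each alternative (filled orange where adjusted p was under 0.05, open where not). The points of SLC2A3, SLC2A6 and SLC2A10 are orange throughout, and those of SLC2A11 probe set 221262_s_at spread from -2.31 to -0.11.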

How the data were processed

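Total RNA was labelled with biotin and hybridised to 1-colour Affymetrix arrays, per the labels' protocols. The values are linear signal intensities per probe set, as deposited by the authors, and the submitters' processing notes name GCOS, the array software, without a version. The 2% trimmed mean was 200.02 on every array, so the deposited intensities were already scaled to a common mean, which hides any change that most transcripts share. Of further steps the sources say nothing, and detection calls were not used. Of 54675 probe sets, 41097 name 1 gene, 1801 several and 11777 none. RefSeq (GRCh38.p14) gave the symbols for 41043.

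Signals were log2-transformed with no pseudocount. The 62 control probe sets were left out, and 27307 with a mean at or above the median (32.93) were tested with limma 3.58.1 in R 4.3.3 (lmFit, eBayes with a trend, no covariate, Benjamini-Hochberg). The fit was also run on simulated data with far fewer changed probe sets than were called here, so that run does not vouch for these calls. Every probe set of the 10 members is given, up to 4 genes per list with the smallest p, TXNIP, HK1, HK2 and other family genes. Further, 3 genes were named for their likeness to the largest called rise and fall. LDHB, SP1, ARNT, HIF1A, MLX, TBC1D1, TBC1D5, AKT2, VPS35, the HEK293 marker changes and the motifs lie outside the rule, picked once values had been seen. Members and lists were chosen with earlier results of these data known. Alternatives covered normalization, filter, pseudocount (9.57), trend, replicate block, probe set type, 1 probe set per gene and leaving out each array. The number of arrays limits the precision.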

Additional observations from a re-analysis of the deposited data

Results flagged for a closer look

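Probe sets 216236_s_at and 222088_s_at, which the annotation gives to both SLC2A14 and SLC2A3, lay outside the member rule and were higher in high glucose than in low glucose. The first read 1131 and 1022 in high glucose, against 669 and 649 in low glucose (0.71 log2 units, limma adjusted p = 0.00022). The second read 1167 and 1255 in high glucose, against 529 and 569 in low glucose (1.14 log2 units, limma adjusted p = 3e-05). Transcripts of the near-identical genes cannot be told apart by these probe sets.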

How the results depend on the processing

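SLC2A3 (3 probe sets), SLC2A6 and SLC2A10 kept direction and call under every alternative that could test them. The stricter filter left out SLC2A10 and SLC2A13, so 0 member probe sets were called lower and 2 genes were called. Without _x_at and _s_at probe sets 1 was called higher and 1 lower, and 2 genes. All calls numbered 9115 and 8032 under these settings, against 13759, because fewer were tested. Leaving out 1 array gave 4 to 5 higher and 1 to 3 lower member probe sets, 3 to 6 called genes and 11167 to 12381 calls in all, the 1 lower coming without high glucose replicate 2. Uncalled values that turned sign were SLC2A8 218985_at after median centring (0.079) and SLC2A12 235050_at after quantile normalization (0.14), median centring (0.14) and cyclic loess (0.11), and, with arrays left out, SLC2A12 235050_at (range -0.22 to 0.15) and SLC2A11 232167_at (-0.62 to 0.023). The cause was not tested. Of 201 comparisons of a single probe set with an alternative, 187 kept sign and side of the threshold, 7 turned sign, 5 gained and 2 lost a call. Alternatives that change only the filter, the trend, the block or the choice of probe sets leave the log2 difference itself unchanged. In those the sign could not turn and only the call could move, so the count of kept signs overstates stability. With the replicate number as a block, 4 member probe sets were called higher and 2 lower, 13842 in all, and no member call changed. The deviations of same-numbered arrays correlated with r = 0.01, and the samples share only a number. Median centring moved the median of all probe sets to 0.11 from -0.06 as reported, and the share of higher calls to 63.0% from 45.9%. Signals near the filter limit what can be read of SLC2A4, SLC2A5, SLC2A9 and SLC2A11.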
